A study of Homo sapiens with 18 samples.

Results

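The tight junction and epithelial adhesion genes described here were 10 genes listed by name. They were the claudins CLDN1, CLDN3, CLDN4 and CLDN7, occludin (OCLN), the scaffold protein TJP1, the junctional adhesion molecule F11R, the surface glycoprotein EPCAM, the protease inhibitor SPINT1 and the transcription factor ELF3. Each gene was followed through every probe set that the array annotation pairs with its symbol alone, and no measured value entered that choice of probe sets. The genes themselves were chosen with earlier results of these data known. In this way 9 of the 10 genes were measured, by 19 probe sets out of 41097, and they made up 9 of the 19775 genes tested. F11R was not analysed here. Where a gene had several probe sets, the one with the highest mean over all arrays stood for it, and the others are given beside it.

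Tight junctions seal the gap between neighbouring epithelial cells near their apical side. Claudins form the strands of the junction and set which ions pass, occludin sits in the same strands, and TJP1 (ZO-1) ties both to the actin cytoskeleton. EPCAM is an adhesion protein of epithelial and carcinoma cells that binds CLDN7, SPINT1 (HAI-1) inhibits matriptase and related serine proteases at the cell surface, and ELF3 is an ETS factor largely restricted to epithelia. Together with E-cadherin such genes mark the epithelial state of carcinoma cells, including those of the prostate.

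Expression was measured in DU145 and CWR22Rv1, established human prostate cancer cell lines, with 3 Affymetrix U133 Plus 2.0 arrays in each of 6 groups. DU145 came from a brain metastasis and does not depend on androgen, and CWR22Rv1 came from a xenograft that relapsed after castration of the host. Cells of each line received a scrambled siRNA, an siRNA to Stat3, or siRNA to Stat5a and Stat5b, all with a cationic lipid reagent, and were harvested 48 h later. All groups were therefore transfected, and untransfected cells were not analysed here. The labels call the arrays of a group triplicates that were not pooled, without saying that they came from separate cultures, so p-values cover only the scatter among these arrays, which could be technical. In bulk RNA, fewer cells of a type and less RNA per cell cannot be told apart.

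The targeted genes were checked first. With Stat3 siRNA the log2 change of STAT3 was -1.62 ± 0.090 in DU145 and -1.13 ± 0.090 in CWR22Rv1, and with Stat5a/b siRNA that of STAT5B was -1.36 ± 0.091 and -0.91 ± 0.091 (limma, adjusted p between 1.1e-08 and 1.2e-05). STAT5A measured -0.30 (adjusted p = 0.101) and -0.34 (adjusted p = 0.146) and was not called. Arrays of one group correlated at 0.993 to 0.998 over probe sets. The 5 luminal epithelial markers KRT8, KRT18, KRT19, CDH1 and EPCAM had a mean log2 value of at least 8.92 in every group, whereas KLK2 stood at 10.1 in CWR22Rv1 scramble arrays and at 3.54 in DU145. Of the other prostate secretory markers measured, TMPRSS2 stood at 8.49 and 4.81 in that order. KLK3 was alike in both lines, at 6.76 and 6.69. In DU145 2 of the 5 luminal markers were called lower with Stat3 siRNA (CDH1 and EPCAM) and 3 with Stat5a/b siRNA (these and KRT19), beside 8.25% and 12.5% of all genes. The mean of the 5 per array went from 11.39 to 11.46 with scramble to 10.95 to 11.10 and 11.01 to 11.02. In CWR22Rv1 0 of the 5 were called by limma (1 higher and 1 lower, then 3 higher and 0 lower, at an unadjusted p under 0.05). There 4.77% and 6.46% of all genes were called, so that 0 of 5 is near those shares. The array medians were 5.16 to 5.20, and markers of other cell types lay on both sides of them. PTPRC (2.96 to 3.16), CD3E (4.63 to 4.94), KRT14 (2.82 to 3.19) and the endothelial marker CDH5 (3.28 to 3.46) were below in every group. COL1A1 (5.94 to 8.29), ENO2 (8.24 to 9.89) and PECAM1 (5.35 to 5.61), also an endothelial marker, were above in every group. VWF, endothelial as well, lay on both sides (4.97 to 5.40). LUM (7.46 to 8.12), SYP (6.83 to 6.98) and CHGA (5.99 to 6.28) were above in CWR22Rv1 groups. The 3' minus 5' log2 difference of GAPDH, a sign of RNA integrity, was 0.125 to 0.147 on the CWR22Rv1 Stat5a/b arrays, above their scramble arrays (0.0619 to 0.0973), and that of ACTB overlapped (0.728 to 0.841 and 0.750 to 0.769). The median SD of a gene within a group was 0.112 to 0.126 in DU145 and 0.0724 to 0.0824 in CWR22Rv1, while the errors given below pool all 6 groups.

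In DU145 most of these genes were called lower with either siRNA, and in CWR22Rv1 few of them were called, with an error pooled over both lines. With each line fitted alone in limma, ELF3 (adjusted p = 0.0597) and OCLN (0.0985) lost their Stat3 calls in DU145. ELF3 gained a call as higher with Stat5a/b siRNA in CWR22Rv1 (0.00751). With Stat3 siRNA in DU145, 6 of the 9 measured genes were lower and 0 higher in limma at an adjusted p under 0.05, against 15.8% of all genes called, 7.51% higher and 8.25% lower. With Stat5a/b siRNA in DU145 the count was again 6 lower and 0 higher, against 24.3% of all genes called, 11.8% higher and 12.5% lower. At an unadjusted p under 0.05 the counts were 6 and 7 lower, and again 0 higher. The 9 genes were chosen with earlier results of these data known, so their counts beside those shares are a description and not a test. In CWR22Rv1, Stat3 siRNA gave 1 lower gene and 0 higher (1 higher at an unadjusted p under 0.05), where 4.77% of all genes were called, 2.75% higher and 2.02% lower. Over all genes that is 544 higher and 400 lower, a split that became 426 and 496 after quantile normalisation again. Stat5a/b siRNA gave 1 lower and 1 higher gene in CWR22Rv1, against 6.46% of all genes called, 3.16% higher and 3.3% lower. The median log2 change of the 9 genes was -0.41 and -0.42 in DU145 and 0.055 and 0.095 in CWR22Rv1, for Stat3 and Stat5a/b siRNA in turn. Medians over all genes were 0.0056, 0.011, -0.0042 and 0.024 in the same order. All 3 siRNA arrays lay on one side of all 3 scramble arrays for 6 and 6 of the 9 genes in DU145, all below, where 26.2% and 34.4% of all genes did so. In CWR22Rv1 they did so for 2 genes below and 3 above with Stat3 siRNA and for 3 below and 4 above with Stat5a/b siRNA, against 32.3% and 31.1% of all genes. The siRNAs of a line were compared with the same 3 scramble arrays, so their changes are not independent of each other. The form a ± b stands for a log2 change with its standard error in the limma fit over all 18 arrays, and p-values were adjusted by Benjamini-Hochberg over all genes.

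**Figure D1:**
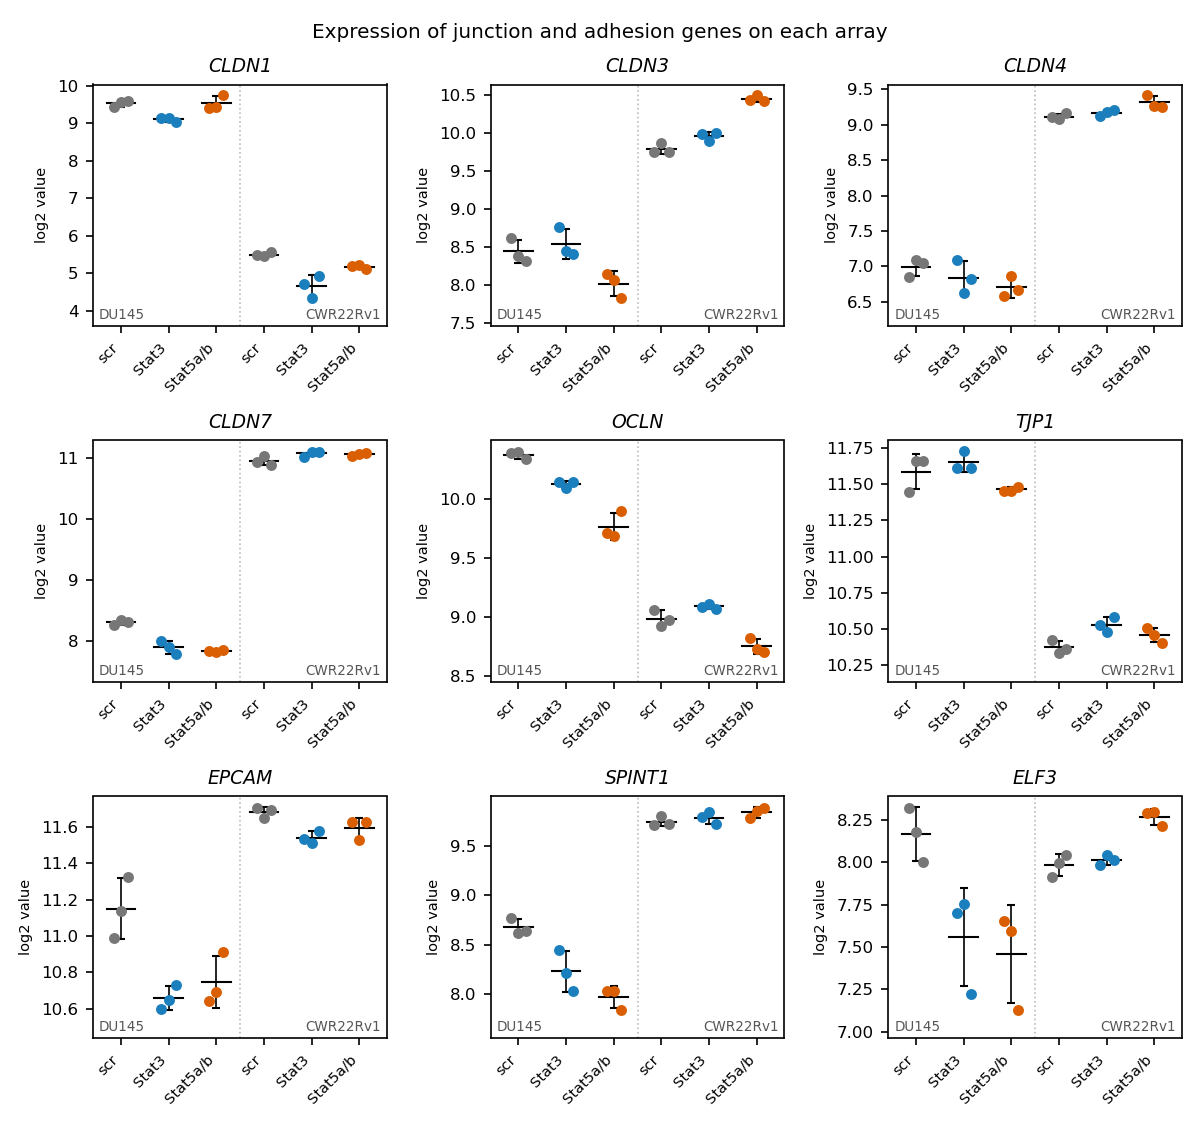
Log2 expression of the 9 measured genes on each of the 18 arrays. Each panel is a gene, points are arrays, horizontal lines are group means, bars are SD (n = 3), and the dotted line separates DU145 (left) from CWR22Rv1 (right); axes start at different values. CLDN7, SPINT1 and EPCAM arrays with either siRNA lie below all scramble arrays in DU145, and CLDN1 is the gene that separates the lines most, near 9.5 in DU145 and 5.5 in CWR22Rv1 scramble arrays.

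**Figure D2:**
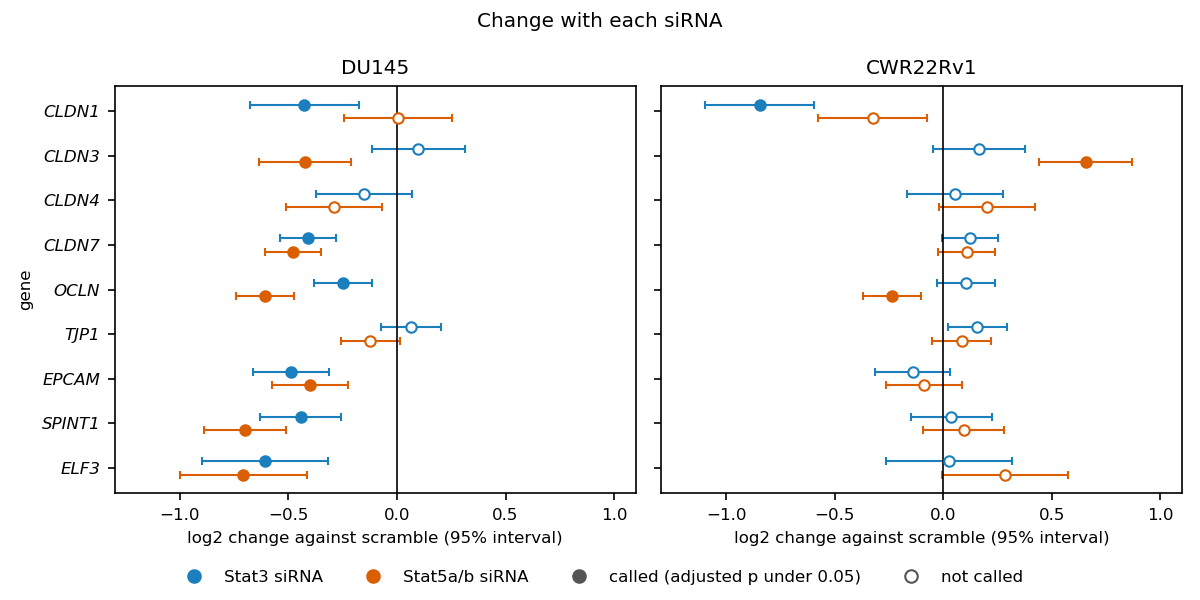
Log2 change against scramble with its 95% confidence interval for each gene, by line (panels) and siRNA (colour). Filled points passed an adjusted p of 0.05 in limma. The filled points in DU145 all lie below 0, while CWR22Rv1 has 1 filled point above 0 (CLDN3, 0.66 with Stat5a/b siRNA) and 2 below (CLDN1, -0.85 with Stat3 siRNA, and OCLN, -0.23 with Stat5a/b siRNA).

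CLDN7, SPINT1 and ELF3 ran most alike over all arrays, and the promoters of these 3 genes are shown for that reason, with that of OCLN as a further gene called with both siRNAs in DU145. After the mean of each line was subtracted, Pearson's r over the 18 arrays was 0.90 for CLDN7 with SPINT1, 0.89 for SPINT1 with ELF3 and 0.80 for CLDN7 with ELF3, given as a description, since the values share arrays and groups. Over the 9 arrays of DU145 these were 0.93, 0.92 and 0.85, and over the 9 of CWR22Rv1 0.62, 0.59 and 0.35, where CLDN3 with ELF3 was highest at 0.93 and OCLN with ELF3 lowest at -0.85. The windows are the 250 bases before the outermost annotated start, from RefSeq on GRCh38.p14, on the strand of the gene. They are chr17:7263214-7263463 (minus strand) for CLDN7, chr15:40843798-40844047 (plus) for SPINT1, chr1:202010337-202010586 (plus) for ELF3 and chr5:69492297-69492546 (plus) for OCLN. Capitals mark CACCTG or its reverse complement CAGGTG, an E-box form that ZEB and SNAI repressors can bind.
CLDN7 promoter: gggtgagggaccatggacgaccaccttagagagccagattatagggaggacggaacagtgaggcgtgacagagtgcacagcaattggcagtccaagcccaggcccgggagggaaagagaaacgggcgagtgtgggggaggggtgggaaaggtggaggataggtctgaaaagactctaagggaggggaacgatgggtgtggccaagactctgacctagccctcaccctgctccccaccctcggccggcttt
SPINT1 promoter: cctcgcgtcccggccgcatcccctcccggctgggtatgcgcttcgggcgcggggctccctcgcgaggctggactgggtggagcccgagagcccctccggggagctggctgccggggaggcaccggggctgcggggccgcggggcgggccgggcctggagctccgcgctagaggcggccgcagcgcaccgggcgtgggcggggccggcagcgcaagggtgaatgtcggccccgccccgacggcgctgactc
ELF3 promoter: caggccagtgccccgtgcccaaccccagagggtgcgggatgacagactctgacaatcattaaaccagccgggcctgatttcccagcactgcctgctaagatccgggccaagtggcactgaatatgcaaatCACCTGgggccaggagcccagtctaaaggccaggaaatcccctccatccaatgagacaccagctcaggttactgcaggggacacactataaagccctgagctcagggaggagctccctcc
OCLN promoter: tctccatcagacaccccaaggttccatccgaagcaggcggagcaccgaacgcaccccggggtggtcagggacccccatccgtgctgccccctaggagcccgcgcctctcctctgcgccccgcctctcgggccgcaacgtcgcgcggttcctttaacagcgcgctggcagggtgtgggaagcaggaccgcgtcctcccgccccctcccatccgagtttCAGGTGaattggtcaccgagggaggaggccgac
The E-box letters occurred 1 time in the ELF3 window, with their first base at position -120 from the start, and 1 time in the OCLN window, at position -33. They did not occur in these CLDN7 and SPINT1 windows, but a further annotated start of CLDN7 had 4 of them in its 250 bases (chr17:7262479-7262728) and a further start of SPINT1 had 1 (chr15:40844227-40844476). Over the 8 genes with a window, 6 of 14 windows held the letters on either strand, against 17.5% of all 35116 promoter windows of that length. The palindrome TTCNNNGAA, the core bound by STAT dimers, occurred in 0 of the 14 windows, against 6.57% of all windows, so it overlapped no E-box here. GC content ran from 34.8% to 80.4% in the 14 windows, against a median of 58.0% over all windows. These are matches of letters within a window and nothing was read from them about binding.

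CLDN7, the claudin that binds EPCAM, fell with both siRNAs in DU145 and was not called in CWR22Rv1. Its DU145 log2 values were 8.26, 8.34 and 8.32 with scramble, 8.0, 7.90 and 7.79 with Stat3 siRNA, and 7.82, 7.81 and 7.84 with Stat5a/b siRNA. All siRNA arrays lay below all scramble arrays. The change was -0.41 ± 0.061 with Stat3 siRNA (75.3% of control, adjusted p = 2.1e-04) and -0.48 ± 0.061 with Stat5a/b siRNA (71.7% of control, adjusted p = 3.1e-05). In CWR22Rv1 its values were 10.95, 11.04 and 10.89 with scramble, 11.03, 11.11 and 11.11 with Stat3 siRNA and 11.04, 11.08 and 11.08 with Stat5a/b siRNA. There the differences were 0.12 and 0.11, neither called, with 95% confidence intervals of -0.0075 to 0.25 and -0.022 to 0.24. CLDN7 had 1 probe set. Its calls in DU145 were kept under all 15 alternatives run for each.

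CLDN1, a claudin of most epithelial barriers, was lower with Stat3 siRNA in each line, and both calls depended on an array or on the choice of probe set. Its DU145 values were 9.44, 9.57 and 9.59 with scramble, 9.15, 9.15 and 9.03 with Stat3 siRNA, and 9.43, 9.43 and 9.77 with Stat5a/b siRNA. The Stat3 arrays stood apart below, and the Stat5a/b arrays overlapped scramble. The change was -0.43 ± 0.12 with Stat3 siRNA (adjusted p = 0.0202) and 0.0058 with Stat5a/b siRNA (95% interval -0.24 to 0.26). Without scramble replicate 2, scramble replicate 3 or Stat3 replicate 3 the adjusted p of the fall was 0.0627, 0.0633 and 0.0738, and with array weights it was 0.0564. In CWR22Rv1 CLDN1 read 5.49, 5.45 and 5.55 with scramble, 4.70, 4.34 and 4.92 with Stat3 siRNA and 5.19, 5.21 and 5.12 with Stat5a/b siRNA. The change was -0.85 ± 0.12 with Stat3 siRNA (adjusted p = 5.3e-04) and -0.33 with Stat5a/b siRNA (adjusted p = 0.134, and 0.0433 with array weights), all arrays with either siRNA lying below scramble. These CWR22Rv1 levels were close to the array median. The other CLDN1 probe set read 4.20, 4.46 and 4.17 with scramble and 4.09, 4.57 and 4.28 with Stat3 siRNA there (0.038, adjusted p = 0.965), and the mean of both probe sets gave -0.40 with an adjusted p of 0.0513. In DU145 it read 7.0, 7.31 and 7.76 with scramble and 7.28, 6.69 and 7.02 with Stat3 siRNA, overlapping groups (-0.36, adjusted p = 0.233).

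CLDN3 and CLDN4 are receptors for Clostridium perfringens enterotoxin and neighbours on chromosome 7. CLDN3 was the gene on which the lines went opposite ways with Stat5a/b siRNA. Its DU145 values were 8.62, 8.39 and 8.32 with scramble, 8.76, 8.46 and 8.41 with Stat3 siRNA, and 8.15, 8.07 and 7.83 with Stat5a/b siRNA, so that only the Stat5a/b arrays lay apart. In CWR22Rv1 it read 9.75, 9.87 and 9.75 with scramble, 9.99, 9.88 and 9.99 with Stat3 siRNA and 10.42, 10.50 and 10.41 with Stat5a/b siRNA, the last all above the rest. With Stat5a/b siRNA the change was -0.42 ± 0.10 in DU145 (adjusted p = 0.00527) and 0.66 ± 0.10 in CWR22Rv1 (158% of control, adjusted p = 7.3e-04). With Stat3 siRNA it was 0.099 and 0.16, neither called. The part of the GAPDH difference of the CWR22Rv1 Stat5a/b arrays in the changes of that group was not tested. The second CLDN3 probe set gave -0.47 and 0.56 with Stat5a/b siRNA, both called when every probe set was fitted as its own feature. The probe set that stood for CLDN3 is of the type that can also hybridise with related transcripts.

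CLDN4 was not called with either siRNA in either line. Its DU145 values were 6.85, 7.08 and 7.05 with scramble, 7.09, 6.62 and 6.81 with Stat3 siRNA and 6.57, 6.87 and 6.67 with Stat5a/b siRNA, all groups overlapping. In CWR22Rv1 they were 9.10, 9.08 and 9.16, then 9.13, 9.18 and 9.20, then 9.43, 9.26 and 9.26 in the same order, and the Stat5a/b arrays lay above the others. The differences with Stat5a/b siRNA were -0.29 ± 0.10 in DU145 (adjusted p = 0.0537) and 0.20 ± 0.10 in CWR22Rv1 (adjusted p = 0.352). The DU145 value passed without scramble replicate 1 (-0.36, adjusted p = 0.0336) and without Stat5a/b replicate 2 (-0.37, adjusted p = 0.0255). It also passed when genes under log2 6 in every group were left out (adjusted p = 0.0314), with eBayes trend and robust (0.0294) and with array weights (0.0191). A second probe set of CLDN4 lay between 4.48 and 4.95 on all arrays.

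OCLN, the strand protein occludin, fell most with Stat5a/b siRNA. In DU145 it read 10.39, 10.40 and 10.34 with scramble, 10.14, 10.10 and 10.14 with Stat3 siRNA and 9.72, 9.69 and 9.90 with Stat5a/b siRNA. The 3 groups did not overlap, in that order. The change was -0.25 ± 0.063 with Stat3 siRNA (84.2% of control, adjusted p = 0.0122) and -0.61 ± 0.063 with Stat5a/b siRNA (65.5% of control, adjusted p = 3.8e-06). With DU145 fitted alone the Stat3 value had an adjusted p of 0.0985. In CWR22Rv1 OCLN read 9.06, 8.92 and 8.97 with scramble, 9.09, 9.12 and 9.07 with Stat3 siRNA and 8.82, 8.73 and 8.70 with Stat5a/b siRNA. The last group lay lowest, by -0.23 ± 0.063 against scramble (adjusted p = 0.0348). The OCLN call in CWR22Rv1 was lost without scramble replicate 1 (adjusted p = 0.172), scramble replicate 3 (0.0944), Stat5a/b replicate 2 (0.125) or Stat5a/b replicate 3 (0.139). The 4 OCLN probe sets gave -0.65, -0.61, -0.57 and -0.33 with Stat5a/b siRNA in DU145, all called when fitted as features of their own. In CWR22Rv1 the same 4 gave -0.31, -0.23, -0.29 and -0.26, of which 1 was called.

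TJP1, the scaffold beneath the strands, was not called against scramble in any of the 4 comparisons. In DU145 it read 11.45, 11.66 and 11.66 with scramble, 11.61, 11.73 and 11.61 with Stat3 siRNA and 11.46, 11.46 and 11.48 with Stat5a/b siRNA. The CWR22Rv1 values were 10.42, 10.34 and 10.37, then 10.53, 10.48 and 10.58, then 10.51, 10.46 and 10.41. Only the CWR22Rv1 Stat3 arrays lay apart from their scramble arrays. The differences were 0.065 and -0.12 in DU145 and 0.16 and 0.085 in CWR22Rv1, each with a standard error of 0.065. The widest 95% bounds over these 4 were -0.26 and 0.29. Without scramble replicate 1, the lowest of its group, the Stat5a/b value in DU145 was -0.19 with an adjusted p of 0.0386, and with array weights the Stat3 value in CWR22Rv1 had an adjusted p of 0.0301. The second TJP1 probe set went the other way in CWR22Rv1. It read 7.19, 7.14 and 7.23 with scramble, 7.15, 7.18 and 7.10 with Stat3 siRNA and 6.97, 6.81 and 6.94 with Stat5a/b siRNA, the last below all scramble arrays, by -0.28 ± 0.094 (adjusted p = 0.123, every probe set its own feature). In DU145 it gave -0.018 and -0.21, neither called.

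EPCAM fell with both siRNAs in DU145. Its values were 10.99, 11.14 and 11.32 with scramble, 10.60, 10.65 and 10.73 with Stat3 siRNA and 10.64, 10.69 and 10.91 with Stat5a/b siRNA. The siRNA arrays all lay below scramble, and the scramble arrays had an SD of 0.17 (n = 3). The change was -0.49 ± 0.082 with Stat3 siRNA (71.2% of control, adjusted p = 5.7e-04) and -0.40 ± 0.082 with Stat5a/b siRNA (75.8% of control, adjusted p = 0.00184). EPCAM in CWR22Rv1 read 11.70, 11.65 and 11.69 with scramble, 11.54, 11.51 and 11.58 with Stat3 siRNA and 11.63, 11.53 and 11.62 with Stat5a/b siRNA. All siRNA arrays lay below scramble there too, by -0.14 (adjusted p = 0.429) and -0.088 (adjusted p = 0.676), and neither was called.

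SPINT1, the inhibitor of matriptase, fell in DU145 with both siRNAs. It read 8.77, 8.62 and 8.64 with scramble, 8.44, 8.21 and 8.04 with Stat3 siRNA and 8.04, 8.04 and 7.84 with Stat5a/b siRNA. Scramble lay above both siRNA groups. The change was -0.44 ± 0.088 with Stat3 siRNA (73.6% of control, adjusted p = 0.00222) and -0.70 ± 0.088 with Stat5a/b siRNA (61.5% of control, adjusted p = 2.6e-05). In CWR22Rv1 the values were 9.71, 9.79 and 9.72, then 9.78, 9.84 and 9.71, then 9.77, 9.85 and 9.88, and all groups overlapped. The differences there were 0.037 (95% interval -0.15 to 0.22) and 0.095 (-0.091 to 0.28). The second SPINT1 probe set, with a mean of 6.17 over all arrays, did not follow: it gave -0.15 and 0.092 in DU145, neither called. With the mean of both probe sets the SPINT1 calls in DU145 were kept at smaller changes, -0.30 (adjusted p = 0.0108) and -0.30 (adjusted p = 0.00591).

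ELF3 had the lowest log2 change of the 9 genes in DU145 with either siRNA, next to SPINT1 with Stat5a/b siRNA, and also the largest standard error. It read 8.32, 8.18 and 8.0 with scramble, 7.70, 7.76 and 7.23 with Stat3 siRNA and 7.65, 7.59 and 7.13 with Stat5a/b siRNA. All siRNA arrays lay below scramble, and replicate 3 was the lowest array of each group. The change was -0.61 ± 0.14 with Stat3 siRNA (65.7% of control, adjusted p = 0.00568) and -0.71 ± 0.14 with Stat5a/b siRNA (61.2% of control, adjusted p = 0.00121). With DU145 fitted alone the Stat3 value had an adjusted p of 0.0597. All 3 ELF3 probe sets were called lower with both siRNAs in DU145, by -0.74, -0.61 and -0.60 with Stat3 siRNA and by -0.57, -0.71 and -0.94 with Stat5a/b siRNA. ELF3 in CWR22Rv1 read 7.91, 8.0 and 8.04 with scramble, 7.98, 8.04 and 8.01 with Stat3 siRNA and 8.29, 8.30 and 8.21 with Stat5a/b siRNA, the last above the other CWR22Rv1 arrays. That difference of 0.28 ± 0.14 was not called (adjusted p = 0.304), while with CWR22Rv1 fitted alone its adjusted p was 0.00751 and under the replicate block it was 0.0273.

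**Figure D3:**
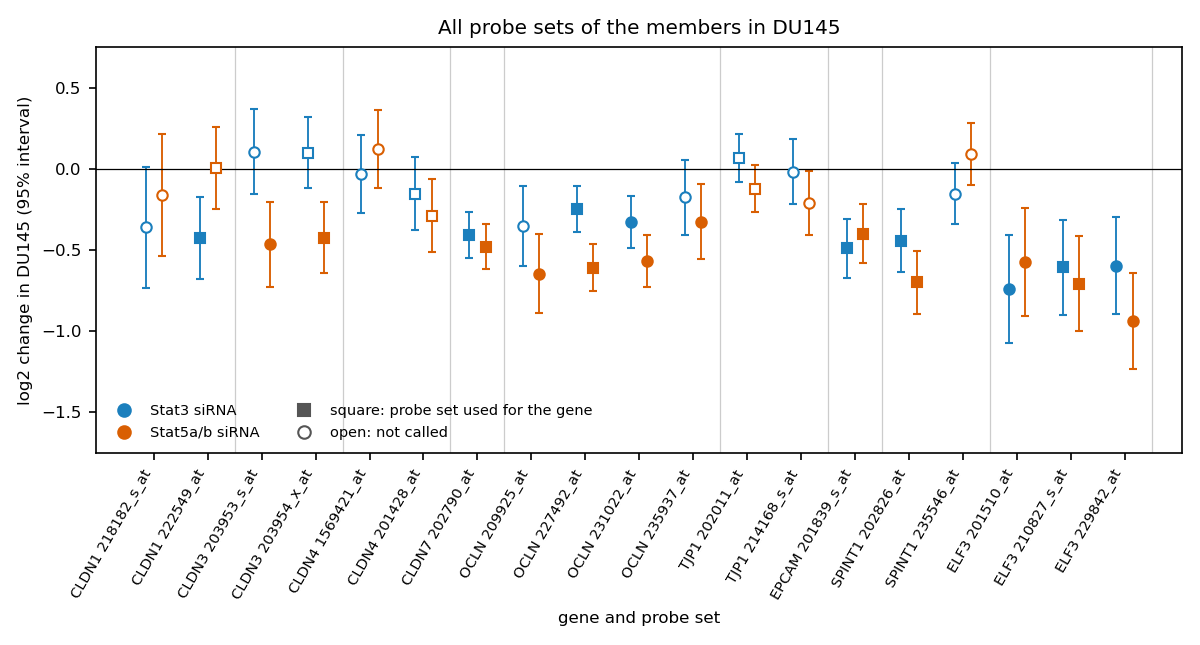
Log2 change against scramble in DU145, with its 95% confidence interval, for each of the 19 probe sets of the 9 genes. Colour is the siRNA, squares are the probe sets that stood for a gene and filled symbols were called with every probe set as its own feature, 9 with Stat3 siRNA and 12 with Stat5a/b siRNA, all below 0. The probe sets of ELF3 and OCLN lie together, while the second probe sets of SPINT1 and CLDN4 stay near 0.

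The siRNAs differed from each other in DU145 for CLDN3 and OCLN most clearly. With Stat5a/b against Stat3 siRNA, 5 of the 9 genes were called, 4 lower and 1 higher, where 22.1% of all genes were called, 11.2% lower and 11% higher. CLDN3 measured -0.52 ± 0.10 (adjusted p = 0.00123) and OCLN -0.36 ± 0.063 (adjusted p = 5.5e-04), both kept under 15 of 15 alternatives. CLDN1 was higher by 0.43 ± 0.12 (adjusted p = 0.0140), a call lost without Stat5a/b replicate 3 (adjusted p = 0.0674) and also with array weights (0.0819) or the mean of its probe sets (0.0526). SPINT1 (-0.26 ± 0.088, adjusted p = 0.0460) and TJP1 (-0.19 ± 0.065, adjusted p = 0.0484) stood at the threshold, and each lost its call under 10 of 15 alternatives. SPINT1 reached an adjusted p of 0.22 without Stat3 replicate 1, and also lost its call without Stat3 replicate 2 (0.0757) or Stat5a/b replicate 1 (0.0582), 2 (0.056) or 3 (0.159). The mean of its probe sets gave -0.0064. TJP1 lost it without any 1 of the 6 arrays, up to 0.157 without Stat3 replicate 2. CLDN7 (-0.070, 95% interval -0.20 to 0.060), EPCAM (0.089, -0.086 to 0.26), CLDN4 (-0.14, -0.36 to 0.084) and ELF3 (-0.10, -0.39 to 0.19) were not called.

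In CWR22Rv1 the siRNAs differed for 3 of the 9 genes, 2 higher and 1 lower with Stat5a/b than with Stat3 siRNA, where 10.8% of all genes were called, 4.7% higher and 6.05% lower. The split over all genes, 930 higher and 1196 lower, became 1217 and 965 after quantile normalisation again and 1185 and 985 after cyclic loess. CLDN1 was higher by 0.52 ± 0.12 (adjusted p = 0.00833), CLDN3 was higher by 0.49 ± 0.10 (adjusted p = 0.00418) and OCLN measured -0.34 ± 0.063 (adjusted p = 0.0020). CLDN3 and OCLN kept their calls under 15 of 15 alternatives, and CLDN1 lost its call only with the mean of its probe sets (adjusted p = 0.157). ELF3, at 0.26 not called, passed with the replicate block (adjusted p = 0.0308) and with CWR22Rv1 fitted alone (0.00778). OCLN was thus lower with Stat5a/b than with Stat3 siRNA in each line, whereas CLDN3 was lower in DU145 and higher in CWR22Rv1.

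The difference between the lines in the effect of an siRNA was tested directly. For Stat3 siRNA 3 of the 9 genes were called, all with the higher value in CWR22Rv1, against 3% of all genes called, 1.82% higher and 1.18% lower. The split over all genes, 359 higher and 234 lower, became 284 and 292 after quantile normalisation again. CLDN7 differed by 0.53 ± 0.087 (adjusted p = 0.00392), from -0.41 in DU145 to 0.12 in CWR22Rv1, and kept its call under 20 of 20 alternatives. OCLN (0.36 ± 0.089, adjusted p = 0.0422) and SPINT1 (0.48 ± 0.12, adjusted p = 0.0492) were less firm, losing their calls under 10 and 15 of 20 alternatives. Among single arrays, OCLN lost its call without DU145 scramble replicate 1 or 2, DU145 Stat3 replicate 2 or 3, CWR22Rv1 scramble replicate 2 or 3, or any CWR22Rv1 Stat3 array, with an adjusted p up to 0.106. SPINT1 lost its call without any 1 of the arrays but DU145 Stat3 replicate 1, with an adjusted p up to 0.114, and the mean of its probe sets gave 0.29 (0.172). ELF3 (0.64 ± 0.19, adjusted p = 0.0919), EPCAM (0.35 ± 0.12, adjusted p = 0.125) and CLDN1 (-0.42 ± 0.17, adjusted p = 0.206) were not called. ELF3 passed with the replicate block (adjusted p = 0.00568), the mean of probe sets (0.0378), eBayes trend and robust (0.0446) and array weights (0.0210). EPCAM passed with the replicate block (0.0243) and with eBayes trend and robust (0.0389).

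For Stat5a/b siRNA 6 of the 9 genes were called, again all with the higher value in CWR22Rv1, against 11.9% of all genes called, 6.75% higher and 5.17% lower. CLDN3 differed by 1.08 ± 0.14 (adjusted p = 2.1e-04), ELF3 by 0.99 ± 0.19 (adjusted p = 0.00380), SPINT1 by 0.80 ± 0.12 (adjusted p = 7.7e-04) and CLDN7 by 0.59 ± 0.087 (adjusted p = 5.1e-04). These 4 kept their calls under 20 of 20 alternatives. OCLN differed by 0.38 ± 0.089 (adjusted p = 0.0118), although it was lower with Stat5a/b siRNA in both lines, and lost its call only with the mean of its probe sets (adjusted p = 0.0652). CLDN4 differed by 0.49 ± 0.15 (adjusted p = 0.0402) and lost its call under 13 of 20 alternatives. These were the omission of DU145 scramble replicate 2 or 3, of DU145 Stat5a/b replicate 1 or 3, or of any CWR22Rv1 array (adjusted p up to 0.0962), the replicate block (0.0752), every probe set as its own feature (0.058) and the mean of probe sets (0.18, adjusted p = 0.339). EPCAM (0.31 ± 0.12, adjusted p = 0.0947), TJP1 (0.21 ± 0.091, adjusted p = 0.162) and CLDN1 (-0.33 ± 0.17, adjusted p = 0.226) were not called. EPCAM passed under 6 of 20 alternatives, which were the replicate block (adjusted p = 0.0146), low genes left out (0.0499), eBayes trend and robust (0.0300), array weights (0.00971) and the omission of DU145 scramble replicate 1 (0.0365) or DU145 Stat5a/b replicate 3 (0.0300). TJP1 passed with array weights (0.0473) and without DU145 scramble replicate 1 (0.0481). STAT3 itself fell less in CWR22Rv1 with its siRNA (difference 0.49 ± 0.13, adjusted p = 0.0495) and STAT5B fell less with Stat5a/b siRNA (0.45 ± 0.13, adjusted p = 0.0312). STAT3 also started lower in CWR22Rv1, with a scramble mean of 7.28 against 10.90 in DU145 (-3.62 ± 0.090, limma adjusted p = 2.0e-15). STAT5B was not called between the scramble controls (-0.094 ± 0.091, adjusted p = 0.408). The part of this unequal knockdown and of the unequal STAT3 level in the differences between lines was not tested.

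**Figure D4:**
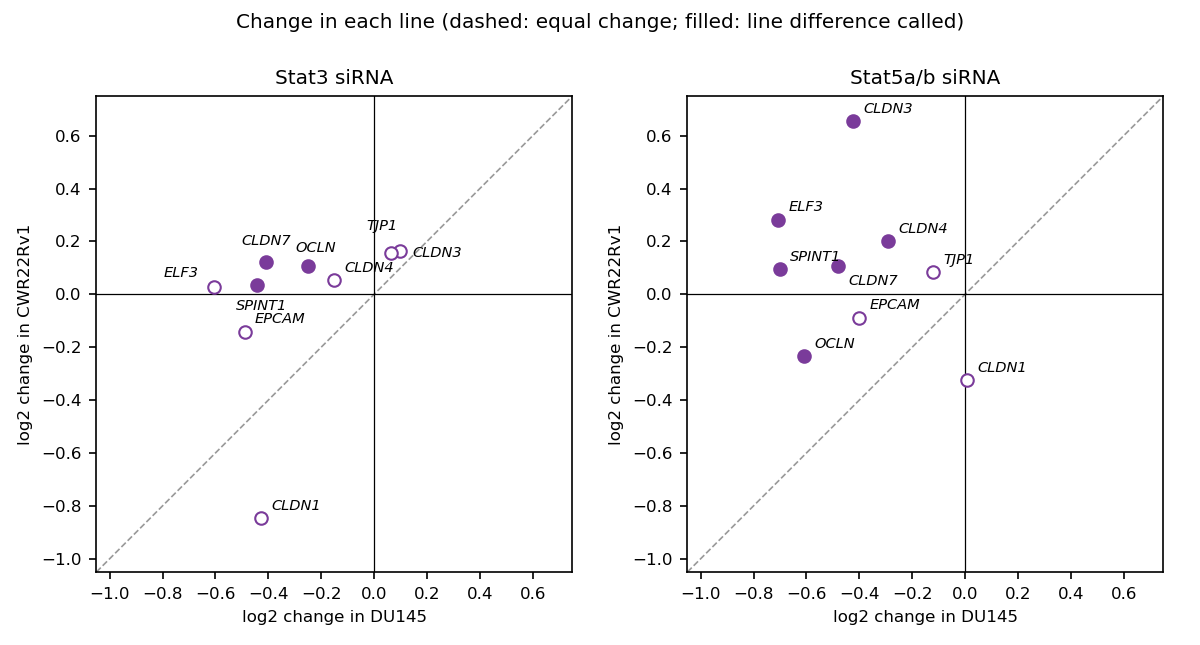
Log2 change in CWR22Rv1 (vertical axis) against that in DU145 (horizontal axis) for the 9 genes, with Stat3 siRNA on the left and Stat5a/b siRNA on the right. The dashed line marks equal change, and filled points are genes whose difference between lines was called, 3 with Stat3 and 6 with Stat5a/b siRNA. With Stat5a/b siRNA, CLDN3 lies farthest from the line, at -0.42 in DU145 and 0.66 in CWR22Rv1.

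At baseline the lines held these genes at different levels. Between scramble arrays, 8 of the 9 genes were called, 5 higher and 3 lower in CWR22Rv1 than in DU145, where 56.9% of all genes were called, 30% higher and 27% lower. CLDN7 was higher in CWR22Rv1 by 2.66 ± 0.061, CLDN4 by 2.12 ± 0.10, CLDN3 by 1.35 ± 0.10, SPINT1 by 1.07 ± 0.088 and EPCAM by 0.53 ± 0.082. The second probe sets of CLDN4 and SPINT1 did not follow, and their scramble arrays overlapped between the lines. That of CLDN4 read 4.71, 4.48 and 4.74 in DU145 and 4.68, 4.83 and 4.89 in CWR22Rv1. That of SPINT1 read 6.17, 6.04 and 6.10, then 6.10, 6.31 and 6.28. The log2 difference was -4.04 ± 0.12 for CLDN1 (6.09% of the DU145 level), -1.39 ± 0.063 for OCLN and -1.21 ± 0.065 for TJP1, whose second probe set gave -1.73. ELF3 measured -0.18 ± 0.14 (adjusted p = 0.283, and 0.0389 with the replicate block) with the probe set used, but another of its probe sets was higher in CWR22Rv1 by 1.09, and the mean of its 3 probe sets gave 0.39 (adjusted p = 0.0134). The OCLN probe sets also disagreed here, with -1.39 and -0.88 called and -0.13 and 0.097 not called. With the probe sets used, the 3 groups of one line lay apart from the 3 of the other for 8 of the 9 genes, whatever the siRNA. ELF3 was the exception, with the CWR22Rv1 Stat5a/b mean of 8.27 highest, the DU145 scramble mean of 8.17 next and the DU145 Stat5a/b mean of 7.46 lowest.

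Other junction genes were read from lists of the pathway. These lists too were chosen with earlier results of these data known, so their shares are a description only. In DU145 more of them were lower than higher. Over 65 genes of tight junction membrane proteins, tight junction scaffolds and polarity proteins, adherens junctions and desmosomes, 12 were lower and 5 higher with Stat3 siRNA, and 24 were lower and 2 higher with Stat5a/b siRNA. That is 18.5% and 36.9% called lower, beside 8.25% and 12.5% of all genes. The higher genes were 7.69% and 3.08%, beside 7.51% and 11.8% of all genes. In CWR22Rv1 the counts were 3 lower and 5 higher, then 5 lower and 3 higher. There 4.62% and 7.69% were lower, beside 2.02% and 3.3% of all genes, and 7.69% and 4.62% were higher, beside 2.75% and 3.16%. The median log2 change of the 65 genes was -0.078 and -0.14 in DU145 and 0.037 and 0.037 in CWR22Rv1. Under the 15 alternatives the lower genes numbered 7 to 15 and 17 to 31 in DU145, and 1 to 5 and 1 to 6 in CWR22Rv1. The higher genes numbered 2 to 7 and 1 to 6 in DU145, and 1 to 11 and 2 to 11 in CWR22Rv1. With each line fitted alone, Stat5a/b siRNA in CWR22Rv1 gave 11 higher and 5 lower. The 31 came with every probe set as its own feature, where a gene counted if any of its probe sets passed.

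Among the other tight junction membrane proteins, 6 of 22 fell and 1 rose with Stat3 siRNA in DU145, and 7 fell with Stat5a/b siRNA. Of all genes, 8.25% were lower and 7.51% higher, then 12.5% and 11.8%. CXADR, a tight junction protein and virus receptor, read 12.34, 12.40 and 12.29 with scramble, 11.79, 11.82 and 11.69 with Stat3 siRNA and 11.74, 11.73 and 11.65 with Stat5a/b siRNA. CXADR was called lower in all 4 comparisons, at -0.57 and -0.64 in DU145 and -0.31 and -0.23 in CWR22Rv1. The last of these calls was kept under 8 of 15 alternatives. MARVELD2 (tricellulin), which seals the corners where cells meet, was lower with both siRNAs in DU145 (-0.33 and -0.58), and in CWR22Rv1 when Stat5a/b was targeted (-0.33). JAM3 was lower with either siRNA in DU145 (-0.81 and -0.81). CLDN12 was higher with Stat3 siRNA in both lines (0.55 and 0.43) and CLDN5 was lower with Stat5a/b siRNA in DU145 (-0.41). With Stat5a/b siRNA TMEM47 (0.58) was higher and CLDN11 (-0.38) lower in CWR22Rv1.

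Among tight junction scaffolds and polarity proteins, 7 of 20 fell and 0 rose in limma in DU145 with Stat5a/b siRNA (8 and 2 at an unadjusted p under 0.05). With Stat3 siRNA 1 fell and 2 rose. Beside them, 12.5% of all genes were lower and 11.8% higher with Stat5a/b siRNA, and 8.25% and 7.51% with Stat3 siRNA. Cingulin (CGN), which links the junction to actomyosin, was lower in DU145 with Stat5a/b siRNA (-0.65) and higher in CWR22Rv1 with Stat3 siRNA (0.41). PATJ of the Crumbs complex was lower with both siRNAs in DU145 (-0.32 and -0.58), and PARD3B (-0.58) and the atypical kinase PRKCZ (-0.35) with Stat5a/b siRNA. PARD3, the core polarity scaffold, rose with Stat3 siRNA in both lines (0.31 and 0.32), and PARD6B rose in DU145 (0.35). The PARD3 call in CWR22Rv1 was kept under 7 of 15 alternatives. In CWR22Rv1 MPDZ (-0.27) was lower with Stat3 siRNA, and with Stat5a/b siRNA AMOTL2 (-0.27) was lower and PALS1 (0.19) higher.

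Adherens junction and desmosome genes moved in DU145 as well. E-cadherin (CDH1), the central adhesion molecule of epithelial cells, read 10.07, 10.15 and 10.07 with scramble, 9.22, 9.12 and 9.0 with Stat3 siRNA and 8.92, 9.09 and 8.74 with Stat5a/b siRNA. Its CWR22Rv1 values were 11.83, 11.81 and 11.86, then 12.04, 11.95 and 12.05, then 12.09, 12.05 and 12.02, all siRNA arrays lying above scramble, by 0.18 and 0.22, neither called (adjusted p = 0.254 and 0.129). Its effect differed between the lines by 1.16 ± 0.11 with Stat3 siRNA and 1.40 ± 0.11 with Stat5a/b siRNA (adjusted p = 1.0e-04 and 3.2e-06). P-cadherin (CDH3) was lower in DU145 (-0.93 and -0.81). Of the 12 adherens junction genes, 2 fell and 2 rose with Stat3 siRNA in DU145, and 6 fell and 1 rose with Stat5a/b siRNA. The shares over all genes there were 8.25% lower and 7.51% higher, then 12.5% and 11.8%. Beta-catenin (CTNNB1) rose by 0.57 with Stat3 siRNA, and vinculin (VCL) went from 0.22 with Stat3 siRNA to -0.39 with Stat5a/b siRNA. In CWR22Rv1 NECTIN2 rose with both siRNAs (0.40 and 0.50) and NECTIN3 with Stat3 siRNA (0.34).

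Of 11 desmosome genes in DU145, 3 fell with Stat3 siRNA, and 4 fell and 1 rose with Stat5a/b siRNA. Over all genes the shares were 8.25% lower and 7.51% higher, then 12.5% and 11.8%. Periplakin (PPL), a cytolinker of the desmosome, fell (-0.74 and -1.42), as did plakophilin PKP3 (-0.26 and -0.45), while desmoplakin (DSP) rose by 0.19 with Stat5a/b siRNA. Desmocollin DSC2 was lower in all 4 comparisons (-0.34 and -0.45 in DU145, -0.31 and -0.44 in CWR22Rv1). Its call with Stat3 siRNA in CWR22Rv1 was kept under 8 of 15 alternatives. Among the relatives of SPINT1 and EPCAM, 9 genes in all, SPINT2 was lower with both siRNAs in DU145 (-0.21 and -0.25) and CD9 with Stat5a/b siRNA (-0.27). Matriptase (ST14), the protease that SPINT1 inhibits, was lower by -0.50 with Stat5a/b siRNA in DU145 and measured -0.19 (adjusted p = 0.12) with Stat3 siRNA. The receptor MET rose by 0.56 and CD82 by 0.35 with Stat3 siRNA in DU145. In CWR22Rv1, 0 of the 9 were called by limma with either siRNA. There 4.77% and 6.46% of all genes were called, so that 0 of 9 is near those shares. At an unadjusted p under 0.05 the counts there were 0 with Stat3 siRNA and 3 with Stat5a/b siRNA, all 3 higher.

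**Figure D5:**
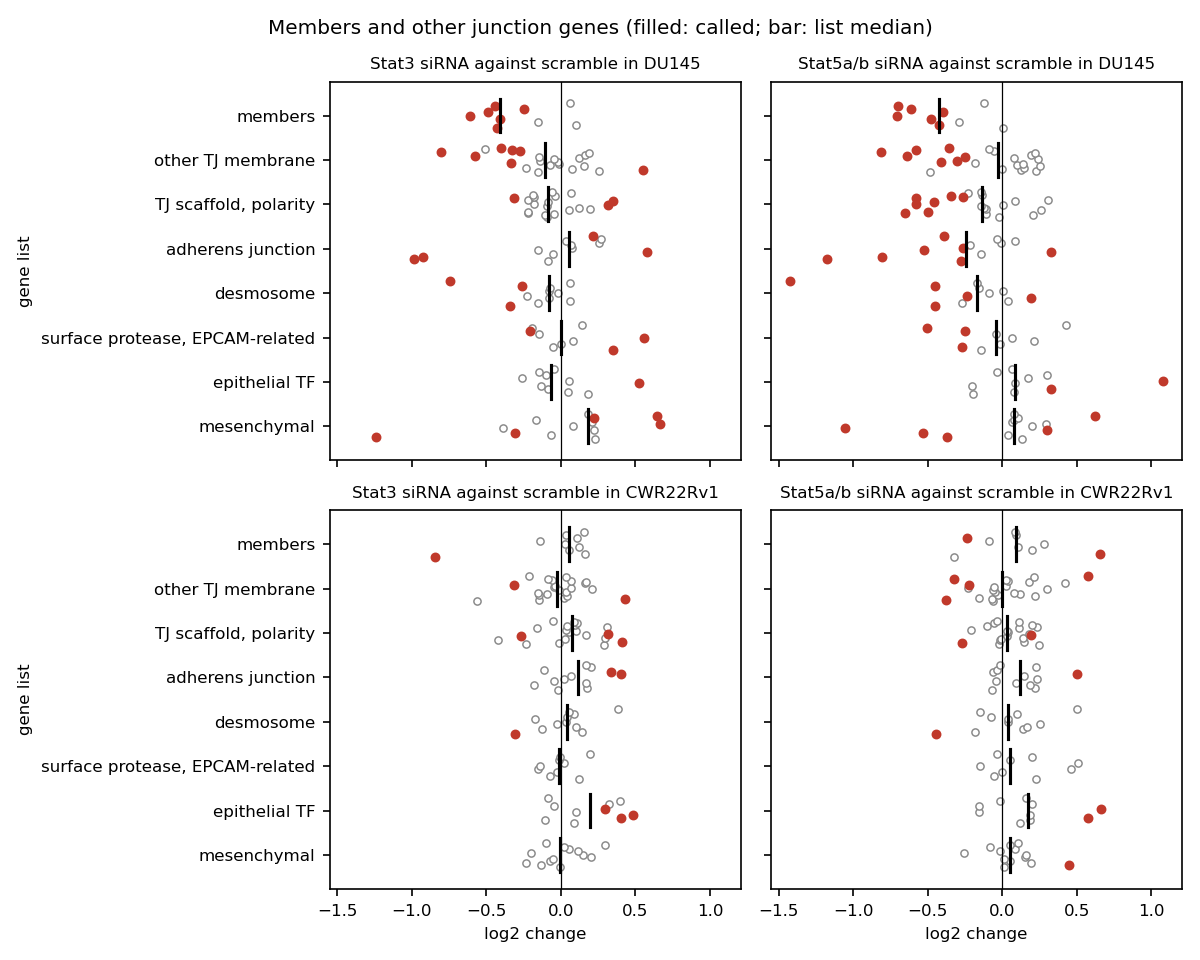
Log2 change against scramble of each gene in the 9 measured genes (top row of each panel) and in the 7 lists, for each siRNA and line. Filled points were called in limma and black bars are list medians. In DU145 the junction lists have more filled points left of 0 than right of it with Stat5a/b siRNA (24 against 2 over the 4 junction lists), and in CWR22Rv1 the called points are few and lie on both sides.

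Among other regulators of the epithelial state, those called by limma were all higher. Of 10 epithelial transcription and splicing factors, limma called 0 lower in any of the 4 comparisons, while 1, 2, 3 and 2 rose (Stat3 and Stat5a/b siRNA in DU145, then in CWR22Rv1). At an unadjusted p under 0.05, 1, 1, 0 and 0 were lower. Of all genes 8.25%, 12.5%, 2.02% and 3.3% were lower and 7.51%, 11.8%, 2.75% and 3.16% higher in that order, so that 0 lower of 10 and the DU145 counts are near the shares over all genes. The 3 and 2 higher of 10 in CWR22Rv1 are above those shares, as a description only. Under the 15 alternatives the called factors there numbered 1 to 5 with Stat3 siRNA and 2 with Stat5a/b siRNA. Some factors, named after their values were seen, passed only under an alternative. With Stat3 siRNA in DU145, KLF5 was lower with the replicate block (-0.26, adjusted p = 0.0206) and without Stat3 replicate 2 (-0.38, 0.0343). ESRP1 was lower there with the mean of probe sets (-0.24, 0.0325). With Stat5a/b siRNA in DU145, GRHL1 was lower with array weights (0.0405), low genes left out (0.0401), and without Stat5a/b replicate 3 (0.0222) or scramble replicate 2 (0.0452). OVOL1 and OVOL2 passed as higher with Stat3 siRNA in CWR22Rv1. KLF4, a factor of differentiating epithelia, read 7.57, 7.66 and 7.78 with scramble and 8.67, 8.72 and 8.88 with Stat5a/b siRNA in DU145, a rise of 1.08 ± 0.072 (adjusted p = 3.2e-08). It also rose in CWR22Rv1, by 0.30 and 0.66. The splicing factor ESRP1 rose by 0.32 with Stat5a/b siRNA in DU145 and by 0.40 and 0.57 in CWR22Rv1. GRHL1 rose by 0.49 with Stat3 siRNA in CWR22Rv1. GRHL2 was called higher with Stat3 siRNA in DU145 (0.53, adjusted p = 0.0389), at levels below every array median, 3.90, 4.04 and 3.85 with scramble and 4.85, 4.26 and 4.26 with Stat3 siRNA. Without Stat3 replicate 1 it measured 0.33 (adjusted p = 0.173), without scramble replicate 1, 2 or 3 its adjusted p was 0.0997, 0.0553 and 0.105, and with the replicate block it was 0.0569.

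Mesenchymal genes moved both ways in DU145. Of 13, 3 rose and 2 fell with Stat3 siRNA, and 2 rose and 3 fell with Stat5a/b siRNA, beside 7.51% of all genes higher and 8.25% lower, then 11.8% and 12.5%. ZEB1, a repressor of epithelial genes, read 7.62, 7.54 and 7.96 with scramble, 8.27, 8.25 and 8.54 with Stat3 siRNA and 8.20, 8.18 and 8.61 with Stat5a/b siRNA. It rose by 0.64 ± 0.13 (adjusted p = 0.00301) and 0.62 ± 0.13 (adjusted p = 0.00259). In CWR22Rv1 ZEB1 lay between 2.03 and 2.66 on every array. SNAI2 rose by 0.67 and vimentin (VIM) by 0.22 with Stat3 siRNA in DU145, and N-cadherin (CDH2) measured 0.23 and 0.13, not called. The VIM call was kept under 7 of 15 alternatives. COL1A1 (-1.24 and -0.37) and FN1 (-0.31 and -0.53) were lower with both siRNAs, and S100A4 (-1.06) with Stat5a/b siRNA. The 6 fibroblast markers had 1 lower gene with each siRNA in DU145 (COL1A1), and their mean log2 value per array was 4.42 to 4.60 with scramble, 4.21 to 4.32 with Stat3 siRNA and 4.38 to 4.48 with Stat5a/b siRNA. In CWR22Rv1 2 were lower with Stat3 siRNA (LUM, -0.66, and COL3A1, -0.47) and 1 higher with Stat5a/b siRNA (COL1A1, 0.45), with list means of 5.74 to 5.79, 5.46 to 5.54 and 5.88 to 5.97 that did not overlap. There 2.02% of all genes were lower with Stat3 siRNA and 3.16% higher with Stat5a/b siRNA. The 3 neuroendocrine markers had 1 higher gene with Stat3 siRNA (SYP, 0.58) and 1 lower with Stat5a/b siRNA (ENO2, -0.63) in DU145. The 3 leukocyte markers also had 1 lower gene each (CD14, from 6.12 to 5.02 and 5.16) in DU145, with list means of 4.50 to 4.68, 4.13 to 4.33 and 4.11 to 4.50. The group means of PTPRC and CD3E lay below every array median. The part of these markers in the changes of the junction genes was not tested.

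The genes whose pattern was most like that of each called gene were sought over all genes but the 9, by Pearson's r over the 18 arrays after subtracting the mean of each line. For CLDN7 they were CDH1 (0.94) and TMEM191A (0.93), and for SPINT1 they were ROGDI (0.96) and EPS8L2 (0.95). For ELF3 they were SCD (0.95) and MIEN1 (0.94), for OCLN ZDHHC21 (0.96) and ZNF24 (0.95), and for EPCAM CAND1 (0.94) and DNAJC6 (0.91). For CLDN3 they were KLHDC8B (0.96) and GRN (0.94), and for CLDN1 DIS3 (0.90) and SFPQ (0.89). Each is the highest of 19775 genes over arrays that share groups, so the size of r has no test. Among the 9 genes themselves, r ran from 0.90 (CLDN7 with SPINT1) to -0.48 (CLDN1 with TJP1), and CLDN1 had no r above 0.52 with any other of them.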

How the data were processed

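Expression was measured in 18 arrays of 6 groups (3 each), grouped from the sample titles. The deposited values are log2 expression per probe set, and the authors used RMA and limma, per the submitters' processing notes, with no versions or further steps given in the sources used here. RMA corrects background, quantile-normalises arrays and summarises probes, so small shared shifts between arrays are removed. Detection calls were not used, so the distance of a value from background is unknown. Precision is limited by the number of arrays.

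The table held 54675 probe sets, of which 41097 have 1 gene symbol in the platform annotation and 1801 several; none was named from the latter. The brightest probe set of a gene, by its mean over the 18 arrays, stood for it, which gave 19775 genes. One mean per group was fitted to all 18 arrays with limma 3.58.1 in R 4.3.3 (lmFit, eBayes, two-sided, 12 residual and 3.82 prior degrees of freedom), with Benjamini-Hochberg adjustment over all genes in a comparison and a call at an adjusted p under 0.05. The script was tested on simulated data. A percentage of control is the log2 change put back on the linear scale.

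Genes named are the 9 measured ones, STAT3, STAT5A and STAT5B, up to 4 called genes by smallest adjusted p of each list in each siRNA comparison, CDH1, CDH2, VIM, ZEB1 and ST14 whether called or not, and per called gene the 2 others most like it. PTPRC and other cell type markers are named as a check, and KLF5, OVOL1 and OVOL2 were named after their values were seen. The genes and lists were chosen with earlier results of these data known. Of the listed genes, F11R, CTNND1, MAGI1, MAGI2, ARHGEF2, ESRP2, ACPP, TP63 and some others were not analysed here. Promoter windows and their motif letters came from RefSeq on GRCh38.p14.

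Same-numbered scramble and Stat3 siRNA arrays of DU145 deviated together (r of 0.197, 0.158 and 0.328, each over 0.1), so the numbers may pair those groups. The main fit did not use such a pairing, which was run only as an alternative. In the other comparisons within a line not every pair was over 0.1. Alternatives were the replicate number as a block, each line fitted alone, quantile or cyclic loess normalisation again, genes under log2 6 in every group left out, the mean of all probe sets, every probe set as its own feature, eBayes with trend and robust, array weights, and each array left out in turn.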

Additional observations from a re-analysis of the deposited data

Results flagged for a closer look

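The effect of an siRNA differed between the lines, by a test of the difference itself, for 9 combinations of gene and siRNA. Each value is the log2 change in CWR22Rv1 minus that in DU145, with its standard error and the limma p adjusted over all genes. With Stat3 siRNA these were CLDN7 (0.53 ± 0.087, adjusted p = 0.00392), OCLN (0.36 ± 0.089, adjusted p = 0.0422) and SPINT1 (0.48 ± 0.12, adjusted p = 0.0492). With Stat5a/b siRNA they were CLDN3 (1.08 ± 0.14, adjusted p = 2.1e-04), SPINT1 (0.80 ± 0.12, adjusted p = 7.7e-04), CLDN7 (0.59 ± 0.087, adjusted p = 5.1e-04), ELF3 (0.99 ± 0.19, adjusted p = 0.00380), OCLN (0.38 ± 0.089, adjusted p = 0.0118) and CLDN4 (0.49 ± 0.15, adjusted p = 0.0402). CLDN3 was called in opposite directions in the lines, while for CLDN7, SPINT1 and ELF3 the change was called in DU145 only.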

How the results depend on the processing

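Log2 changes of the 9 genes that passed the test kept their direction in every alternative run, and 75 of 637 such values no longer passed. Of those that had not passed, 28 passed under an alternative and 21 of 659 changed sign, with ELF3 at baseline in both counts. Of 70 called changes of the other named genes, 36 kept their call under each alternative run, while CLDN11, CGN and NECTIN3 in CWR22Rv1 and CD82 in DU145 kept theirs under 5 or 6 of 15. Kept under 7 or 8 of 15 were PARD3 and DSC2 with Stat3 siRNA and PALS1 and CXADR with Stat5a/b siRNA in CWR22Rv1. The same held in DU145 for VIM and GRHL2 with Stat3 siRNA and CD9 with Stat5a/b siRNA. The count of called genes moved as follows. For Stat5a/b against Stat3 siRNA in DU145 it was 3 with each line fitted alone, with quantile normalisation again, with the mean of probe sets and with every probe set as its own feature, and 2 with array weights, against 5. For Stat3 siRNA in CWR22Rv1 it was 0 with the mean of probe sets and 2 with array weights, against 1. For the difference between lines with Stat3 siRNA it was 1 with every probe set as its own feature and 5 with eBayes trend and robust, against 3. Leaving out 1 array gave 5 to 6 and 6 to 8 called genes with Stat3 and Stat5a/b siRNA in DU145, 1 to 1 and 1 to 2 in CWR22Rv1, 2 to 4 and 3 to 3 between siRNAs, 1 to 3 and 5 to 8 between lines with Stat3 and Stat5a/b siRNA, and 8 to 8 at baseline.

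The labels do not say what a replicate number marks. Same-numbered arrays of different groups in a line had correlated deviations from -0.067 to 0.33, with 6 of 18 over 0.1, against -0.24 to 0.11 and 1 of 36 for different numbers. Each array was also set against each other group of its line, and in 23 of these 36 settings it correlated best with its own number. The 36 are not independent, since each correlation enters from both sides. With the replicate number as a block, the difference between lines with Stat3 siRNA counted 5 called genes, and the other counts of the 9 genes stayed within 1.5 times. The block changed no call of the 9 genes but those of ELF3, EPCAM and CLDN4 given above.

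Values that changed sign had not passed the test. Quantile normalisation again gave -0.018 for ELF3 with Stat3 siRNA in CWR22Rv1 and 0.0038 for CLDN7 between siRNAs there, and cyclic loess gave -0.0054 and 0.031. The mean of probe sets gave -0.079 for CLDN1 with Stat5a/b siRNA in DU145, -0.015 for CLDN4 and -0.0088 for SPINT1 with Stat3 siRNA in CWR22Rv1, -0.098 for TJP1 with Stat5a/b siRNA there, 0.0072 for CLDN4 between siRNAs in DU145 and 0.39 for ELF3 at baseline. Array weights gave -0.089 for CLDN1 with Stat5a/b siRNA and 0.074 for ELF3 between siRNAs, both in DU145. Leaving out 1 array gave, from lowest to highest, -0.0064 to 0.10 for TJP1 and -0.011 to 0.19 for CLDN3 with Stat3 siRNA in DU145, -0.11 to 0.064 for CLDN1 with Stat5a/b siRNA there and -0.27 to 0.065 for ELF3 between siRNAs there. It gave -0.0079 to 0.057 for ELF3 with Stat3 siRNA in CWR22Rv1, -0.040 to 2.1e-04 for CLDN7 between siRNAs there and -0.022 to 0.18 for CLDN3 between lines with Stat3 siRNA. The cause was not tested.

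Counts of all genes called also moved. With each line fitted alone they went from 3117 to 1549, from 4805 to 2877 and, between siRNAs, from 4379 to 2379 in DU145, and from 944 to 2059, from 1277 to 2372 and from 2126 to 3775 in CWR22Rv1. Array weights gave 2980, 2644 and 4135 in CWR22Rv1 and 3584 against 2357 between lines with Stat5a/b siRNA. The 593 genes that differed between lines with Stat3 siRNA became 903 with the replicate block, 946 with low genes left out, 904 with eBayes trend and robust and 378 with every probe set as its own feature. Leaving out 1 array of CWR22Rv1 gave as few as 448 and 718 genes there with Stat3 and Stat5a/b siRNA, and 292 between lines with Stat3 siRNA. Counts in the gene lists were small, and in CWR22Rv1 with Stat3 siRNA ranged from 0 to 7 of the 20 scaffold and polarity genes, against 3. How far values lay above background is unknown, which limits what the levels near or below the array medians (CLDN1 and ZEB1 in CWR22Rv1, GRHL2 in DU145) can show.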
